A study of Mus musculus with 8 samples.

Results

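The Wnt signalling genes described here are the secreted Wnt ligands, their Frizzled and LRP receptors, the secreted proteins that block or amplify the signal, and the transcripts Axin2 and Lef1, which serve as readouts of the pathway. They were chosen by symbol, not by how they behaved, and number 47 of the 55202 genes found in both deposited tables. They comprise 19 Wnt ligands, 12 receptors (10 Frizzled genes, Lrp5 and Lrp6), 10 antagonists, 4 R-spondin agonists and the 2 readouts. The question was whether their transcripts differed between Lhx2 mutants and controls in the subplate of the newborn cortex.

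Wnt proteins are lipid-modified ligands that bind Frizzled receptors together with the co-receptors LRP5 and LRP6. In the canonical branch this stabilises beta-catenin, which enters the nucleus and acts with TCF and LEF factors on target genes. Secreted frizzled-related proteins (Sfrp genes and Frzb) and Wif1 bind Wnts outside the cell, Dkk1 blocks the LRP co-receptors, and R-spondins protect Frizzled receptors from degradation. In the developing mouse forebrain, Wnts from the cortical hem pattern the hippocampus, Wnt7a and Wnt7b act on the growing blood vessels of the brain, and Wnt5a and Fzd3 take part in axon guidance.

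The samples were subplate pieces microdissected from the somatosensory cortex of mice at postnatal day 0, of mixed strain. The mutants carried Emx1Cre11.5;Lhx2lox/lox, in which an Emx1-driven Cre removes the LIM-homeodomain gene Lhx2 from cortical progenitors, or NexCre;Lhx2lox/lox, in which Cre driven from the Neurod6 locus acts in postmitotic excitatory neurons. Each line had controls labelled WT, and the sources used here do not give their Cre and lox alleles. Each of the 4 groups had 2 libraries, and each library pooled tissue from 2 brains, so n = 2 pools per group throughout and values of single animals are not seen.

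The libraries held 31.2 to 64.4 M reads, of which the Wnt signalling genes took 0.0719% to 0.0798% in the Emx1Cre line and 0.117% to 0.141% in the NexCre line. Levels are CPM, the reads of a gene scaled to a common library total after TMM normalisation. A gene is "called" at an adjusted p under 0.05 by the quasi-likelihood F test of edgeR, adjusted by Benjamini-Hochberg over 22820 genes. Lhx2 itself was at 90.4 and 91.5 CPM in the 2 Emx1Cre controls against 64.0 and 42.7 CPM in Emx1Cre mutants (log2 fold change −0.77 ± 0.20 (SE), edgeR adjusted p = 0.273, DESeq2 adjusted p = 0.0325). In the NexCre line it was at 182 and 236 CPM in controls and 227 and 245 CPM in the libraries labelled mutant, so the labels of that line are not checked by this gene. All 7 subplate markers listed had reads in every library. Their summed level was 346 and 392 CPM in Emx1Cre controls against 275 and 279 CPM in Emx1Cre mutants, and 59.0 to 66.4 CPM in the NexCre libraries. The controls of the lines thus differed in these markers, at 346 and 392 CPM against 66.1 and 66.4 CPM. Differences between the lines cannot be told apart from differences in the tissue taken. Some libraries held markers of neighbouring tissue: the summed level of 7 thalamic markers was 350 CPM in NexCre control 1 against 97.2 to 107.5 CPM in the other NexCre libraries. Of these markers, Tcf7l2, Lhx9, Zic1, Slc17a6 and Rora were highest in NexCre control 1 among the NexCre libraries. Prkcd was not, at 20.7 CPM there against 19.7 to 25.5 CPM, and Gbx2 had at most 11 reads in any library. Choroid plexus markers summed to 385 CPM in NexCre control 1 and 2085 CPM in NexCre mutant 1, against 6.42 and 23.5 CPM in the other 2. In Emx1Cre mutant 2, 7 striatal markers summed to 375 CPM and 8 meningeal markers to 172 CPM, where no further library of the line exceeded 156 and 45.3 CPM. In bulk tissue, fewer cells of a type and less RNA per cell cannot be told apart.

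By level per length of transcript, a few genes led each class. Among the ligands, Wnt7b led in both lines, at a mean of 36.4 CPM per kb over the Emx1Cre libraries and 24.7 CPM per kb over the NexCre libraries. Wnt7a followed with 9.32 and 7.21 CPM per kb, and the next were Wnt4 in the Emx1Cre line (3.35 CPM per kb) and Wnt5b in the NexCre line (2.37 CPM per kb). Among the receptors, Fzd3, a planar polarity receptor needed for forebrain axon tracts, was the most abundant at 9.11 and 30.4 CPM per kb. Fzd9 came next in the Emx1Cre line at 8.72 CPM per kb, and Lrp6 next in the NexCre line at 8.92 CPM per kb, with Fzd2 after them at 3.35 and 8.56 CPM per kb. The most abundant antagonists were Dkk3, at 44.5 and 39.5 CPM per kb, and Sfrp1, at 16.5 and 47.0 CPM per kb, followed by Sfrp2 at 8.27 and 2.24 CPM per kb. Rspo2 led the agonists at 2.38 and 1.45 CPM per kb, ahead of Rspo3 and Rspo1, and Axin2 stood at 3.57 and 3.13 CPM per kb against 0.233 and 0.497 CPM per kb for Lef1.

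Of the 47 genes, 40 passed the filter on low counts and could be tested. The other 7 were Dkk1, Dkk4, Rspo4, Wnt10b, Wnt3a, Wnt8a and Wnt8b. Wnt8a had 0 reads in every library, while Wnt3a, Wnt8b and Wnt10b had at most 6 reads in any library. Those ligands include the cortical hem Wnts Wnt3a and Wnt8b, which were thus barely detectable at this depth. Dkk1 reached at most 8 reads and Rspo4 at most 16. Dkk4 had 0 reads in all Emx1Cre libraries and both NexCre controls, and 2 and 18 reads in NexCre mutants 1 and 2. Against a floor of 3 reads over the control group, the pooled Dkk4 reads of the NexCre mutants, scaled for depth, gave a ratio of 6.07. Most of these reads came from 1 library, and the ratio does not cover the spread between pools.

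**Figure D1:**
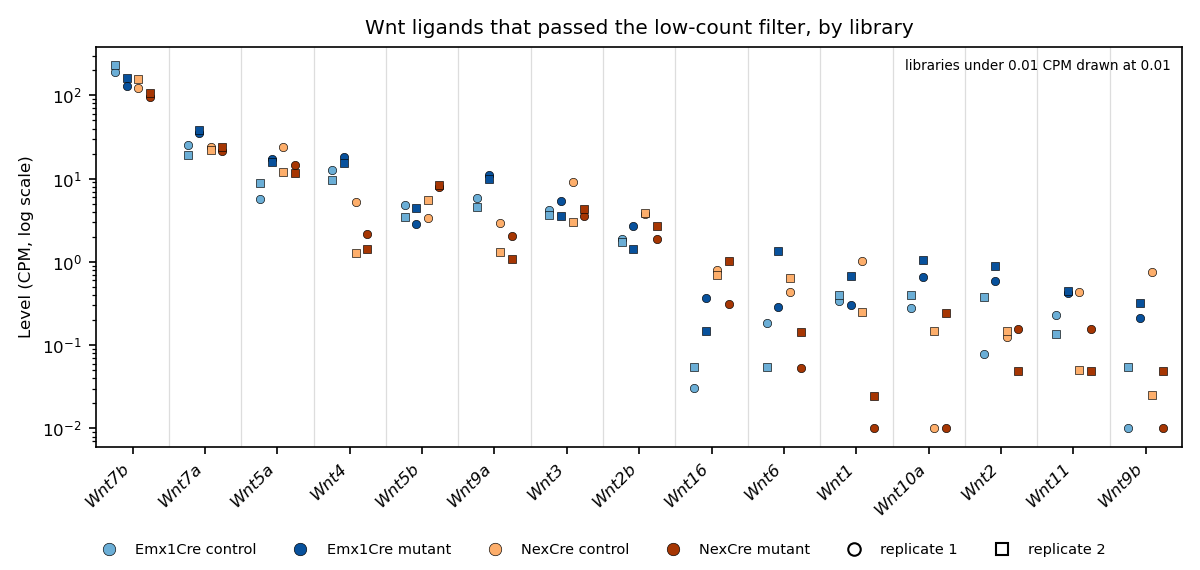
Levels of the 15 Wnt ligands that passed the low-count filter, in each of the 8 libraries (CPM on a log scale, circles for replicate 1 and squares for replicate 2). Wnt7b lies above 95 CPM in every library and Wnt7a between 19.3 and 37.9 CPM, while 7 ligands lie under 2 CPM throughout.

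In the Emx1Cre line, most of the ligand genes lay higher in the mutants than in the controls, and the most abundant ligand, Wnt7b, lay lower. Wnt7a and Wnt5a had the smallest p-values. No Wnt signalling gene was called by edgeR (0 of 40), where 0.0789% of all tested genes were. At an unadjusted p under 0.05, 7 were higher (Wnt7a, Wnt5a, Wnt6, Wnt16, Rspo2, Wnt9a and Fzd4), where 4.52% of all genes were higher, and 1 was lower (Wnt7b), where 3.07% were. DESeq2 with its own scaling called 2 of them, Wnt7a and Wnt5a, both higher, where it called 1.43% of all genes.

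The log2 fold change in the Emx1Cre line was above 0 for 33 of the 40 genes, against 45.9% of all genes tested, and its median was 0.38, against 0.00 for all genes. Both mutants lay above both controls for 20 genes, where 15.1% of all genes did so, and below them for 4 (Dkk3, Frzb, Sfrp1 and Wnt7b), where 15.2% did so. Among the ligands, 13 of 15 had a log2 fold change above 0, with a median of 1.01. That median was 0.41 when a stricter filter on low counts left 8 ligands, 6 of them above 0. Receptors had 11 of 12 above 0 with a median of 0.11, but 6 of 12 without control 2 or without mutant 1 (medians −0.01 and −0.03) and 12 of 12 without control 1 (median 0.36). Antagonists had 4 of 8 above 0, spread from −0.66 to 0.72, with a median of 0.08, or 0.39 over the 7 left by the stricter filter. Agonists had 3 of 3 above 0 with a median of 0.79. When any 1 Emx1Cre library was left out, 28 to 36 of 42 genes lay above 0, against 39.2% to 48.9% of all genes.

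In the NexCre line, most ligands lay lower in the mutants, but this turned on 1 control library. No Wnt signalling gene was called by edgeR (0 of 40), where 0.0307% of all genes were. At an unadjusted p under 0.05, 2 were higher (Sfrp1 and Wnt5b), where 1.69% of all genes were, and 6 were lower (Wnt1, Wif1, Fzd10, Fzd1, Wnt7b and Wnt6), where 2.27% were. DESeq2 called 2, Fzd10 and Wif1, both lower, where it called 0.394% of all genes. The log2 fold change was above 0 for 14 of 40 genes, against 50.6% of all genes, with a median of −0.17. Both mutants lay above both controls for 6 genes, where 18.1% of all genes did so, and below them for 7, where 17.7% did so.

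NexCre control 1 was the highest of the 4 NexCre libraries for 20 of the 40 genes, where it was the highest for 26.5% of all genes. This library had the highest summed level of thalamic markers, and its choroid plexus markers were second to those of NexCre mutant 1. Without it, 27 of 41 genes lay above 0, against 53.2% of all genes, and the median log2 fold change was 0.20 in place of −0.17. For the ligands alone, 2 of 15 lay above 0 with a median of −0.47 when all libraries were used, and 7 of 15 with a median of −0.01 without that library. In the plot of NexCre values with and without control 1, Wnt3, Wnt4, Wnt5a, Wnt9a and Lef1 were among those that crossed from below 0 to above it, while Sfrp1 and Wnt7b stayed on their side of 0. Wnt4, for example, moved from −0.85 to 0.49 and Wnt3 from −0.60 to 0.41. The part of other tissue in these values was not tested.

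**Figure D2:**
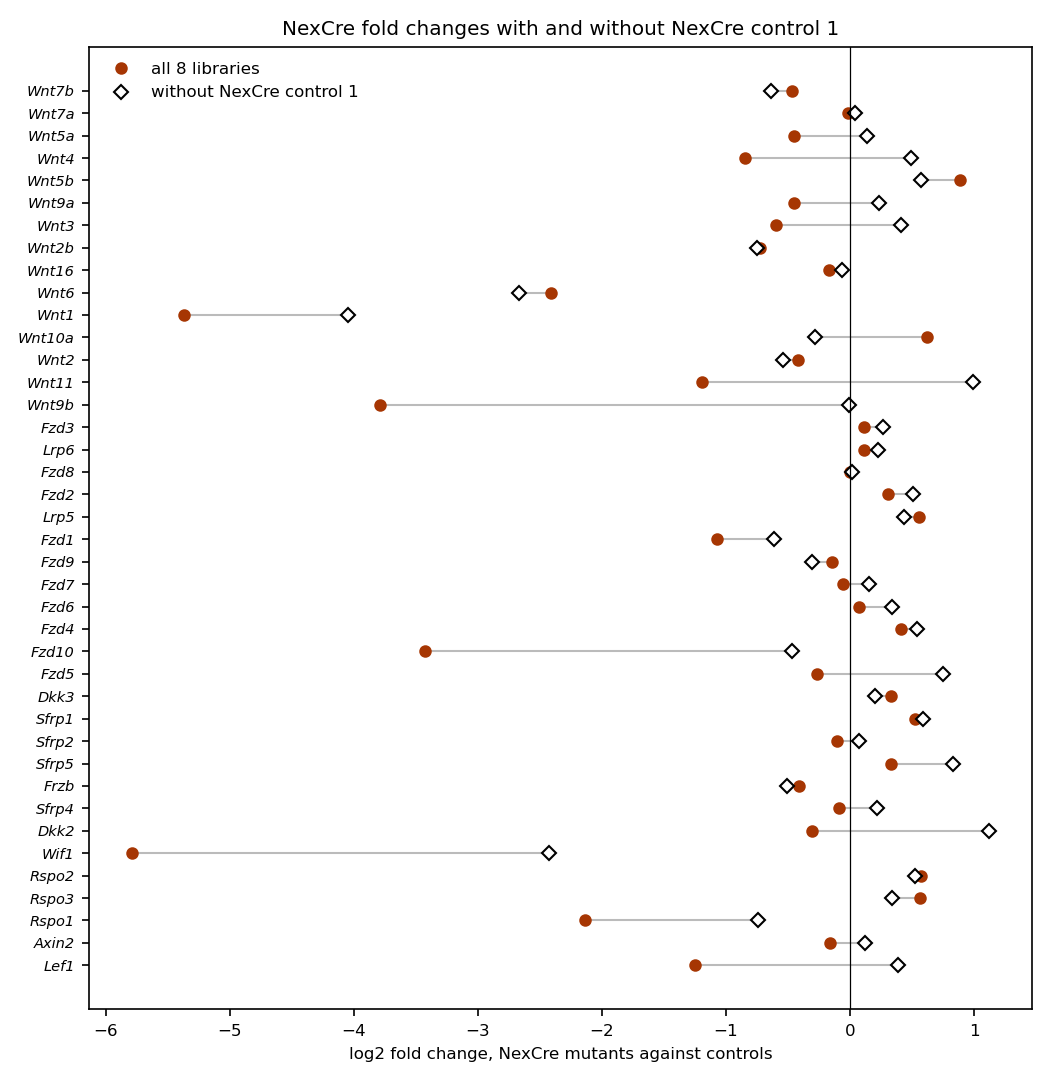
Log2 fold change of the 40 tested genes between NexCre mutants and controls, with all 8 libraries (filled circles) and without NexCre control 1 (open diamonds), joined by a grey line for each gene. Fzd10 moves from −3.42 to −0.46 and Wif1 from −5.79 to −2.43, whereas Sfrp1 stays between 0.52 and 0.59.

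The difference between the lines, the Emx1Cre fold change minus the NexCre fold change, was tested in the same fit. Controls of the lines differed in subplate marker level, so such a difference cannot be assigned to the cells in which Lhx2 was removed. No gene of the group was called by edgeR (0 of 40), where 0.00438% of all genes were. At an unadjusted p under 0.05, 10 had a higher fold change in the Emx1Cre line, where 3.38% of all genes did. They were Fzd10, Wnt1, Wnt6, Wnt5a, Wnt7a, Wnt9b, Fzd1, Rspo1, Wif1 and Wnt9a. For 2, Sfrp1 and Dkk3, the fold change was lower in the Emx1Cre line, where 2.06% of all genes were. DESeq2 called 1 gene, Fzd10, where it called 0.498% of all genes. The edgeR difference of Fzd10 was 4.73, or 1.77 without NexCre control 1, and DESeq2 was not rerun without that library. The difference was above 0 for 33 of 40 genes (median 0.62), against 49.3% of all genes tested. Without that library it was above 0 for 26 of 41 (median 0.20), against 47.4% of all genes. Ligands stayed at 13 of 15, with a median of 1.46 and then 0.95, and receptors went from 10 of 12 to 6 of 12. Without it, Wif1 moved from 5.35 to 1.99, Wnt9b from 7.21 to 3.41 and Rspo1 from 3.56 to 2.16.

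**Figure D3:**
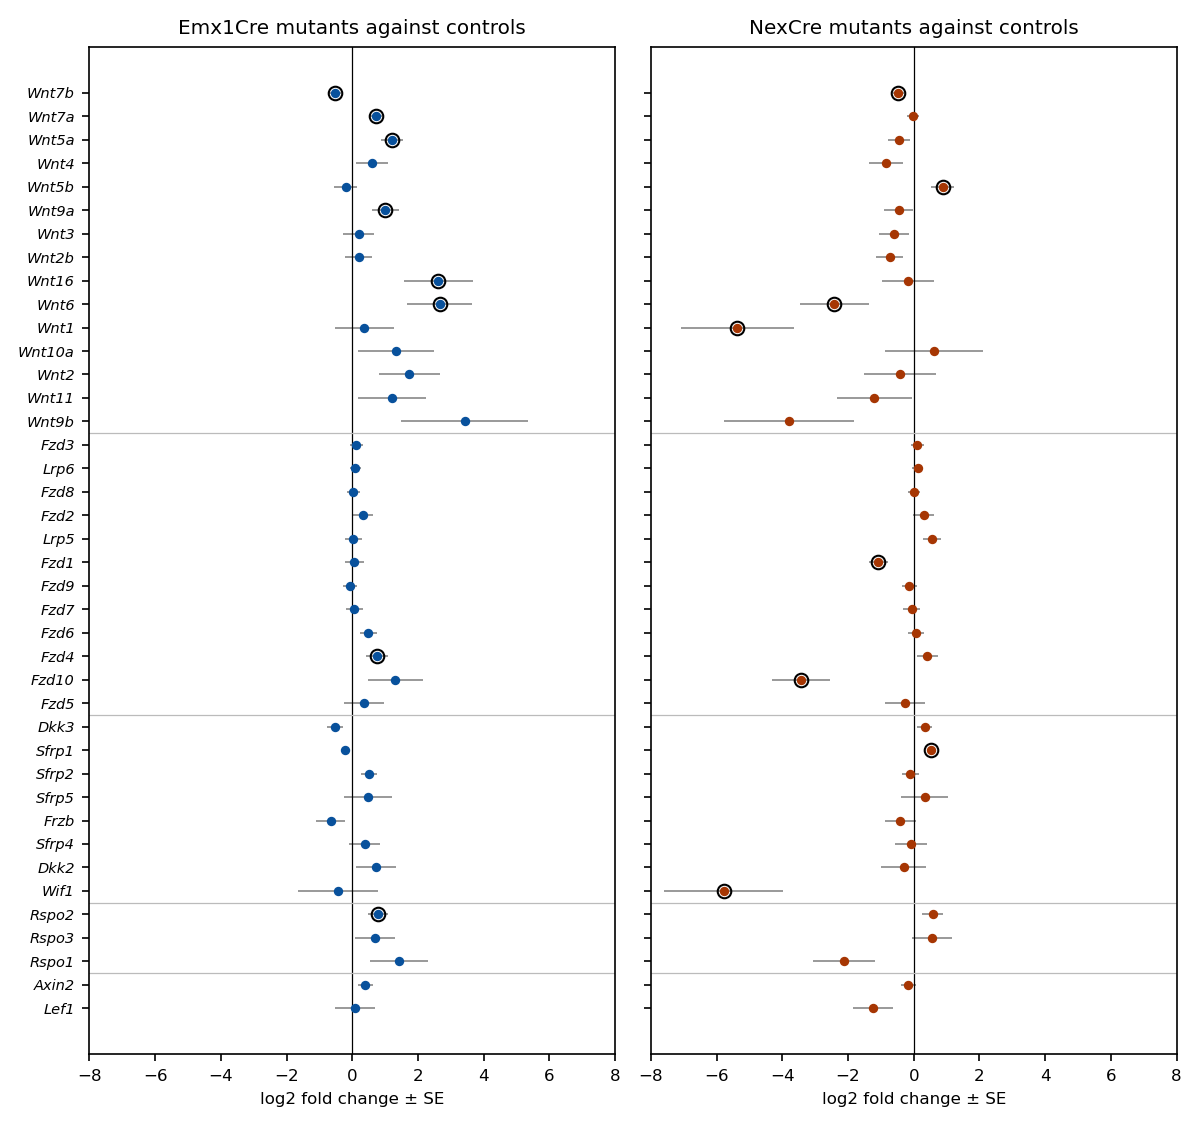
Log2 fold change of each tested gene with its standard error (bars), Emx1Cre mutants against controls on the left and NexCre mutants against controls on the right. Grey lines part ligands, receptors, antagonists, agonists and readouts, and rings mark an unadjusted p under 0.05, which 8 genes reached in each line. The ligands other than Wnt7b and Wnt5b lie right of 0 in the Emx1Cre line and mostly left of it in the NexCre line.

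The ligand Wnt7b, on chromosome 15 (85535437 to 85582473, minus strand, mm10), signals through beta-catenin to endothelial cells of the brain. It measured 189 and 231 CPM in the Emx1Cre controls and 131 and 162 CPM in Emx1Cre mutants. NexCre controls held 123 and 158 CPM and NexCre mutants 95.9 and 107 CPM. In each line both mutants lay below both controls, with the nearest pools at 189 and 162 CPM (Emx1Cre) and 123 and 107 CPM (NexCre). The log2 fold change was −0.52 ± 0.18 (SE, edgeR adjusted p = 0.50) in the Emx1Cre line and −0.47 ± 0.18 (SE, edgeR adjusted p = 1) in the NexCre line. Without NexCre control 2 the NexCre value was −0.27. Between the lines the values differed by −0.05 with a 95% interval of −0.62 to 0.51. An antisense gene, AU022754, shares 6.61% of the exon bases of Wnt7b and had 28 to 68 reads per library.

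Wnt7a, its close relative on chromosome 6 (91363981 to 91411363, minus strand, mm10), measured 25.3 and 19.3 CPM in the Emx1Cre controls and 35.7 and 37.9 CPM in Emx1Cre mutants. Both mutants lay well above both controls. The log2 fold change was 0.72 ± 0.18 (SE, 95% interval 0.32 to 1.13), with an unadjusted p of 0.00267 and an adjusted p of 0.264 in edgeR, and an adjusted p of 0.0265 in DESeq2. Wnt7a in the NexCre line stood at 23.9 and 22.1 CPM in controls and 21.8 and 23.7 CPM in mutants, and the groups overlapped. The NexCre log2 fold change was −0.02 (95% interval −0.42 to 0.39), and the difference between the lines was 0.74 ± 0.26 (SE, edgeR adjusted p = 0.776). Wnt7a and Wnt7b thus lay on opposite sides of 0 in the Emx1Cre line.

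Wnt5a, on chromosome 14 (28504750 to 28527448, plus strand, mm10), mostly acts outside the beta-catenin branch, through receptors such as Ror2. It measured 5.63 and 8.97 CPM in the Emx1Cre controls and 17.4 and 16.0 CPM in Emx1Cre mutants. Both mutants lay clearly above both controls, with a log2 fold change of 1.20 ± 0.34 (SE), an edgeR adjusted p of 0.346 and a DESeq2 adjusted p of 0.0369. Leaving out any 1 library gave values from 0.90 to 1.56. NexCre controls had 23.8 and 11.9 CPM and NexCre mutants 14.5 and 11.7 CPM, with control 1 alone high and a log2 fold change of −0.45 ± 0.33 (SE), or 0.13 without that library. Emx1Cre minus NexCre, the fold changes differed by 1.65 ± 0.47 (SE, edgeR adjusted p = 0.648), or 1.06 without NexCre control 1.

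**Figure D4:**
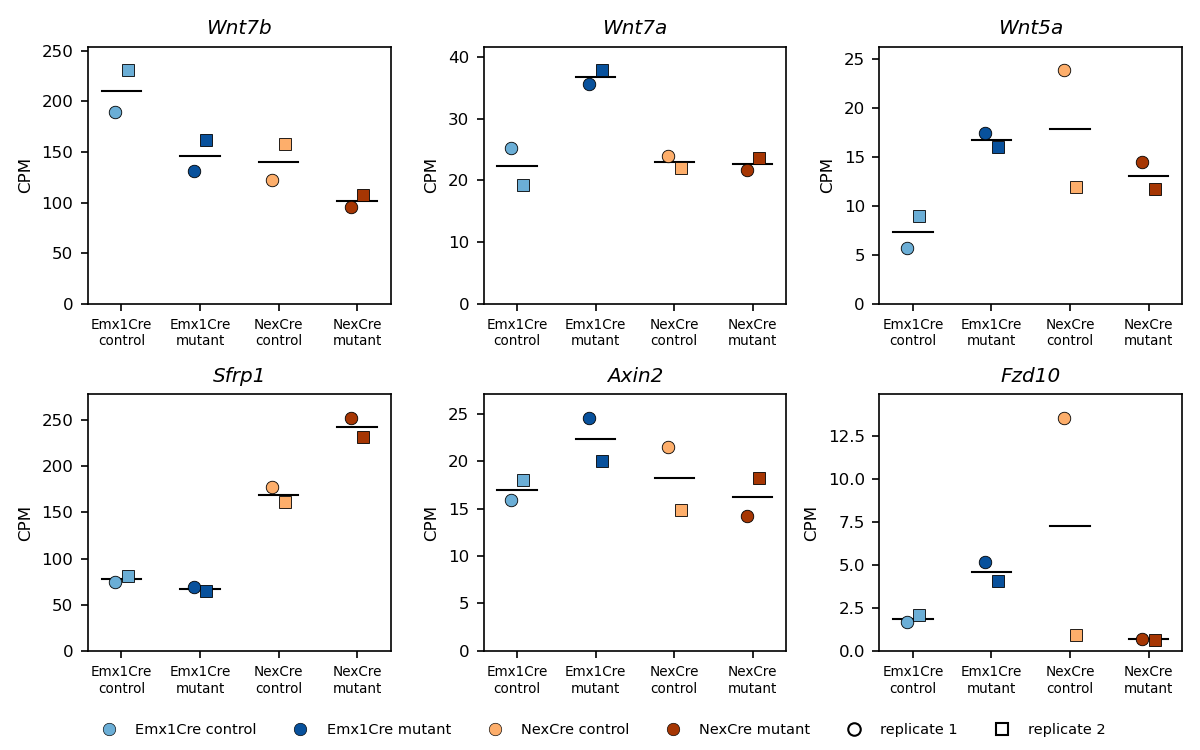
Levels (CPM, axis from 0) of 6 genes in each library, by group, with black bars for group means, circles for replicate 1 and squares for replicate 2. Wnt7b lies lower in the mutants of both lines, Wnt7a and Wnt5a higher in the Emx1Cre mutants, Sfrp1 higher in the NexCre mutants, and Fzd10 at 13.6 CPM in NexCre control 1 alone.

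Wnt9a measured 5.80 and 4.51 CPM in the Emx1Cre controls and 11.0 and 9.80 CPM in Emx1Cre mutants, without overlap. Its log2 fold change was 1.01 ± 0.41 (SE, edgeR adjusted p = 0.620). For NexCre, with 2.96 and 1.32 CPM in controls and 2.02 and 1.09 CPM in mutants, the value was −0.45 ± 0.44 (SE) and the groups overlapped. Between the lines the fold changes differed by 1.46 ± 0.60 (SE, edgeR adjusted p = 0.889), or 0.78 without NexCre control 1. Wnt4 measured 12.7 and 9.73 CPM in the Emx1Cre controls and 18.3 and 15.5 CPM in mutants, with a log2 fold change of 0.59 ± 0.49 (SE). Wnt5b, a relative of Wnt5a, stood at 3.36 and 5.47 CPM in NexCre controls and 7.99 and 8.32 CPM in NexCre mutants. Its NexCre log2 fold change was 0.88 ± 0.35 (SE, edgeR adjusted p = 1), or 0.57 without control 1. The Wnt5b groups overlapped in the Emx1Cre line, with a log2 fold change of −0.20 ± 0.35 (SE).

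Wnt6, Wnt16, Wnt1 and Wnt9b rested on few reads. Wnt6 had 12 and 2 reads in Emx1Cre controls, 16 and 55 in Emx1Cre mutants, 14 and 26 in NexCre controls and 2 and 6 in NexCre mutants. Its log2 fold change was 2.66 ± 0.98 (SE, edgeR adjusted p = 0.557) in the Emx1Cre line, mostly from mutant 2, without which it was 1.16, and −2.41 ± 1.05 (SE, edgeR adjusted p = 1) in the NexCre line. The fold changes differed by 5.08 ± 1.44 (SE, edgeR adjusted p = 0.648). Emx1Cre mutant 2 is the library with high meningeal and striatal markers. Wnt16 had 2 and 2 reads in Emx1Cre controls and 21 and 6 in Emx1Cre mutants, with a log2 fold change of 2.62 ± 1.05 (SE, edgeR adjusted p = 0.564), and 12 to 42 reads in each NexCre library, with overlapping groups.

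Wnt1, the ligand of the midbrain and hindbrain boundary, had 33 and 10 reads in NexCre controls and 0 and 1 in NexCre mutants. Over the pooled reads, scaled for depth, the controls were 47.2 times the mutants, with an exact 95% counting interval of 8.04 to 1908 that does not cover the spread between pools (edgeR adjusted p = 0.552). Its Emx1Cre groups overlapped, at 22 and 15 reads in controls and 17 and 27 in mutants. Wnt9b had 0 and 2 reads in Emx1Cre controls against 12 and 13 in Emx1Cre mutants, a ratio of 13.1 (counting interval 3.27 to 114). NexCre controls had 24 and 1 Wnt9b reads and NexCre mutants 0 and 2, and 24 of the 25 control reads came from control 1. The edgeR adjusted p of the difference between the lines was 0.648 for Wnt1 and 0.781 for Wnt9b.

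The other tested ligands, Wnt2, Wnt2b, Wnt3, Wnt10a and Wnt11, had an unadjusted p above 0.05 in edgeR in both lines. Wnt3, reported in mice to be secreted by thalamic neurons, stood at 3.57 to 5.34 CPM in the Emx1Cre libraries with overlapping groups. Among NexCre libraries it was highest in control 1, at 9.12 CPM, against 3.00 to 4.37 CPM in the other 3 libraries. Wnt2b, a hem ligand, had 3.77 and 3.87 CPM in NexCre controls and 1.89 and 2.72 CPM in NexCre mutants, without overlap, and a log2 fold change of −0.73 ± 0.41 (SE, edgeR adjusted p = 1). Wnt2, Wnt10a and Wnt11 stayed under 1.1 CPM in every library.

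**Figure D5:**
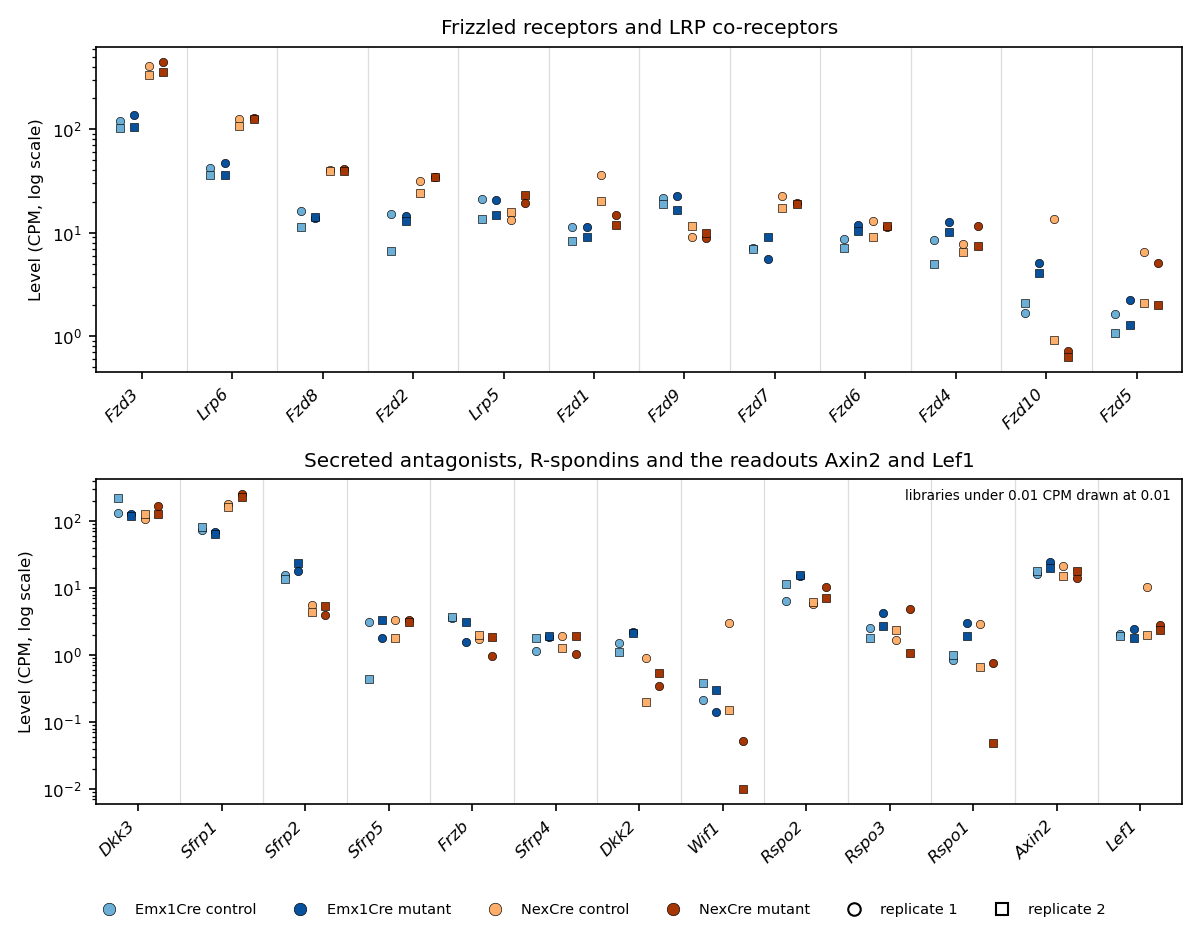
Levels of the tested receptors (upper panel) and of the antagonists, R-spondins and readouts (lower panel) in each library (CPM on a log scale, circles for replicate 1 and squares for replicate 2, groups by colour). Fzd3 and Lrp6 lie highest among the receptors, Dkk3 and Sfrp1 highest in the lower panel, and single NexCre control 1 points stand apart for Fzd10, Lef1 and Wif1.

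Emx1Cre log2 fold changes of the 12 receptors ran from −0.07 for Fzd9 to 1.30 for Fzd10. Those of Fzd1, Fzd3, Fzd7, Fzd8, Fzd9, Lrp5 and Lrp6 ran from −0.07 to 0.12, and the groups overlapped for each. Fzd2 and Fzd5 also overlapped, at 0.31 ± 0.32 and 0.36 ± 0.62 (SE). For Fzd6 both Emx1Cre mutants lay above both controls, at 0.49 ± 0.25 (SE, edgeR adjusted p = 0.716). NexCre log2 fold changes of the 12 receptors ran from −3.42 for Fzd10 to 0.55 for Lrp5. Fzd3 measured 120.5 and 102.6 CPM in the Emx1Cre controls and 138 and 105 CPM in Emx1Cre mutants. NexCre controls had 412 and 335 CPM and NexCre mutants 450 and 358 CPM of Fzd3. The interval of its log2 fold change ran from −0.30 to 0.55 in the Emx1Cre line and from −0.31 to 0.53 in the NexCre line. The co-receptor gene Lrp6 measured 42.4 and 36.5 CPM in the Emx1Cre controls and 47.6 and 36.4 CPM in mutants, with an interval of −0.28 to 0.46.

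Fzd4, the receptor for Norrin on brain and retinal vessels, measured 8.42 and 5.00 CPM in the Emx1Cre controls and 12.6 and 10.1 CPM in Emx1Cre mutants. The groups did not overlap, and the log2 fold change was 0.75 ± 0.32 (SE, edgeR adjusted p = 0.641), with 0.42 to 1.19 when any 1 library was left out. The summed level of 7 endothelial and pericyte markers, none of them at 0 reads, was 275 and 230 CPM in these controls and 417 and 295 CPM in these mutants. Its part in the Fzd4 value was not tested. The NexCre groups overlapped for Fzd4, with a log2 fold change of 0.41 ± 0.33 (SE), or 0.03 without mutant 1.

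Fzd10, on chromosome 5 (128600844 to 128604093, plus strand, mm10), stood at 13.6 and 0.924 CPM in NexCre controls and 0.710 and 0.631 CPM in NexCre mutants. The group difference came from control 1. Its log2 fold change was −3.42 ± 0.89 (SE, edgeR adjusted p = 0.762, DESeq2 adjusted p = 0.00534), and −0.46 ± 0.51 (SE) without that library. Without NexCre control 2, in contrast, edgeR called Fzd10 at −4.33 ± 0.42 (SE, adjusted p = 0.00486), with control 1 as the lone control. Emx1Cre levels of Fzd10 were 1.66 and 2.08 CPM in controls and 5.14 and 4.06 CPM in mutants, without overlap, and the log2 fold change was 1.30 ± 0.84 (SE). The difference between the lines was 4.73 ± 1.22 (SE, edgeR adjusted p = 0.648, DESeq2 adjusted p = 0.00881), or 1.77 without NexCre control 1.

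Fzd1 had 35.9 and 20.4 CPM in NexCre controls and 14.8 and 11.9 CPM in NexCre mutants. Both mutants lay below both controls, with a log2 fold change of −1.07 ± 0.29 (SE, edgeR adjusted p = 0.764), or −0.61 without control 1. Fzd1 overlapped in the Emx1Cre line, at 11.4 and 8.27 CPM in controls and 11.4 and 9.16 CPM in mutants, and the difference between the lines was 1.13 ± 0.41 (SE, edgeR adjusted p = 0.816), or 0.67 without NexCre control 1.

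Among the antagonists, Sfrp1, on chromosome 8 (23411502 to 23449632, plus strand, mm10), encodes a secreted frizzled-related protein made by cortical progenitors. It stood at 177 and 161 CPM in NexCre controls and 253 and 232 CPM in NexCre mutants. Both mutants lay above both controls, with a log2 fold change of 0.52 ± 0.13 (SE, edgeR unadjusted p = 0.00275, adjusted p = 0.631). Leaving out any 1 library kept the value between 0.44 and 0.59. Sfrp1 in the Emx1Cre line stood at 74.6 and 80.8 CPM in controls and 68.6 and 64.8 CPM in mutants, the mutants lower without overlap, with a log2 fold change of −0.22 ± 0.13 (SE, edgeR adjusted p = 0.778). The difference between the lines was −0.74 ± 0.19 (SE, edgeR adjusted p = 0.610), which was the smallest p in this group of genes for that test.

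Dkk3, a divergent Dickkopf gene on chromosome 7 (112116017 to 112159057, minus strand, mm10), measured 132.5 and 220.0 CPM in the Emx1Cre controls and 128 and 117 CPM in Emx1Cre mutants. Control 2 was the high library, and control 1 lay close to the mutants. The log2 fold change was −0.52 ± 0.23 (SE, edgeR adjusted p = 0.656), or −0.12 without control 2 and −0.84 without control 1. NexCre levels of Dkk3 were 107 and 128 CPM in controls and 170 and 126 CPM in mutants, and the groups overlapped. The difference between the lines was −0.86 ± 0.33 (SE, edgeR adjusted p = 0.847), or −0.45 without Emx1Cre control 2.

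Wif1, a secreted Wnt-binding inhibitor, had 96 and 6 reads in NexCre controls and 2 and 0 in NexCre mutants. Over the pooled reads, scaled for depth, the controls were 56.0 times the mutants (exact 95% counting interval 15.1 to 469, edgeR adjusted p = 0.737, DESeq2 adjusted p = 0.0499). That interval does not cover the spread between pools, and 96 of the 102 control reads came from control 1. Emx1Cre libraries had 8 to 14 reads per library, and the edgeR adjusted p of the difference between the lines was 0.822. Sfrp2 measured 15.9 and 13.5 CPM in the Emx1Cre controls and 18.1 and 23.7 CPM in Emx1Cre mutants, without overlap, and had a log2 fold change of 0.51 ± 0.25 (SE, edgeR adjusted p = 0.710), or 0.30 without mutant 2. Frzb, Sfrp4, Sfrp5 and Dkk2 stood between 0.2 and 3.76 CPM and had an unadjusted p above 0.05 in edgeR in both lines.

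The R-spondins act through the LGR receptors and raise the amount of Frizzled at the cell surface. Rspo2 measured 6.47 and 11.4 CPM in the Emx1Cre controls and 15.3 and 15.4 CPM in Emx1Cre mutants, without overlap. Its log2 fold change was 0.79 ± 0.30 (SE, edgeR adjusted p = 0.581), from 0.43 to 1.24 when any 1 library was left out. Its NexCre levels were 5.76 and 6.14 CPM in controls and 10.5 and 7.2 CPM in mutants, also without overlap, with a log2 fold change of 0.57 ± 0.31 (SE, edgeR adjusted p = 1), or 0.26 without mutant 1. Rspo1 measured 0.838 and 1.00 CPM in the Emx1Cre controls and 3.00 and 1.91 CPM in Emx1Cre mutants, with a log2 fold change of 1.42 ± 0.88 (SE). NexCre levels of Rspo1 were 2.89 and 0.674 CPM in controls and 0.763 and 0.0485 CPM in mutants, with overlap, and the difference between the lines had an edgeR adjusted p of 0.822. Rspo3 stood between 1.09 and 4.92 CPM and overlapped between the NexCre groups. In the Emx1Cre line both Rspo3 mutant values (4.31 and 2.67 CPM) lay above both control values (2.51 and 1.78 CPM). The Emx1Cre log2 fold change of Rspo3 was 0.70 ± 0.60 (SE, edgeR adjusted p = 0.890).

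Neither readout had an unadjusted p under 0.05 in edgeR in either line. Axin2, a feedback inhibitor and direct target of beta-catenin signalling on chromosome 11 (108920349 to 108950783, plus strand, mm10), measured 16.0 and 18.1 CPM in the Emx1Cre controls and 24.6 and 20.1 CPM in Emx1Cre mutants. Both mutants lay above both controls, with control 2 and mutant 2 close, and the log2 fold change was 0.39 ± 0.23 (SE, 95% interval −0.13 to 0.92, edgeR adjusted p = 0.777), or 0.23 without mutant 1. Axin2 in the NexCre line stood at 21.5 and 14.9 CPM in controls and 14.3 and 18.2 CPM in mutants, with overlap, and the log2 fold change was −0.16 ± 0.24 (SE, edgeR adjusted p = 1), or 0.12 without control 1. Lef1, a nuclear partner of beta-catenin, stood between 1.78 and 2.41 CPM in the Emx1Cre libraries. The NexCre values were 10.3 CPM in control 1 and 1.97 to 2.79 CPM in the other 3 libraries. Its NexCre log2 fold change was −1.25 ± 0.61 (SE, edgeR adjusted p = 1) with all libraries and 0.38 ± 0.48 (SE) without control 1.

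The promoter regions of the 2 readouts and of Wnt7a, the ligand with the smallest Emx1Cre p-value, are shown because TCF and LEF factors bind short words around CTTTG. The first searched word was CTTTGAA, the next was CTTTGAT, then came CTTTGTA, and the last was CTTTGTT, each looked for on both strands in the 250 bases before each annotated start. Of 32851 RefSeq promoter entries (GRCm38.p6), 14.8% held at least 1 word. The Wnt signalling genes had 37 entries for 31 symbols, and 5 entries held a word (Dkk1, Fzd7, Lef1, Wnt11 and Wnt5b). The Axin2 region (chr11:108920099-108920348, plus strand) and the Wnt7a region (chr6:91411354-91411603, minus strand) held none in this window. Of the 4 Lef1 entries, only the inner start shown (chr3:131156044-131156293, plus strand) held 1, printed in capitals and beginning 147 bases before the start. Each sequence is from RefSeq and reads 5′ to 3′.
Axin2: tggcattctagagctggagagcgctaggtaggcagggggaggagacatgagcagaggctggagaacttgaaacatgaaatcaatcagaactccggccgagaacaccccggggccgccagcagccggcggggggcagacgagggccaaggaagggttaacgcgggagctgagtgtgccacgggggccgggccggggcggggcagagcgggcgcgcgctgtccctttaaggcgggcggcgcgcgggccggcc
Wnt7a: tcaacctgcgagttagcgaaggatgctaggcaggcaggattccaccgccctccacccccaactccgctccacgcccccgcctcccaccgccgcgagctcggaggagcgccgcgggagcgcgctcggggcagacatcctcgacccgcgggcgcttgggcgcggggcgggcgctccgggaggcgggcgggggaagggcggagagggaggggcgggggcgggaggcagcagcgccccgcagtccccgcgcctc
Lef1: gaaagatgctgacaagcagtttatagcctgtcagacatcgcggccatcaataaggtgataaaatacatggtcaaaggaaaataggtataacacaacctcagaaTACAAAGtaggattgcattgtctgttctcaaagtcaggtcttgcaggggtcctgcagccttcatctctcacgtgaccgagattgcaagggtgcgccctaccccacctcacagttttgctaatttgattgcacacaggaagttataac

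Genes elsewhere in the pathway were described from 7 lists with 62 genes in all, covering secretion, receptor turnover, Dkk co-receptors, planar polarity, the cytoplasmic and nuclear core, and feedback targets. No gene of these lists was called by edgeR or by DESeq2 in either line. At an unadjusted p under 0.05 in edgeR, 7 were higher and 2 lower in the Emx1Cre line, with a median log2 fold change of 0.06, and 1 was higher and 3 lower in the NexCre line, with a median of 0.05. The share of genes at that level over all tested was 7.59% in the Emx1Cre line and 3.96% in the NexCre line. In the Emx1Cre line, Ror2, the Wnt5a receptor, stood at 5.66 and 5.70 CPM in controls and 9.45 and 12.2 CPM in mutants (log2 fold change 0.93 ± 0.30 (SE), edgeR adjusted p = 0.457). Tle3 and Tle1, co-repressors that bind TCF factors, had −0.60 ± 0.17 (SE, edgeR adjusted p = 0.336) and −0.46 ± 0.15 (SE, edgeR adjusted p = 0.471). The target Ccnd1, which encodes cyclin D1, had 0.50 ± 0.18 (SE) and Apcdd1, a membrane inhibitor, 0.47 ± 0.17 (SE).

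The other lists of the Emx1Cre line had smaller effects or larger errors. Apc and Axin1, scaffolds of the complex that destroys beta-catenin, had log2 fold changes of 0.49 ± 0.19 and −0.35 ± 0.16 (SE). Znrf3, which removes Frizzled from the membrane, had 0.46 ± 0.19 (SE), and Lgr6, an R-spondin receptor, 0.81 ± 0.37 (SE). Daam2 had 0.55 ± 0.22, Wls, the carrier that secretes Wnts, 0.43 ± 0.30, and Adgra2, the co-receptor for Wnt7a and Wnt7b on vessels, 0.33 ± 0.22 (SE each). Kremen1 and Kremen2, the Dkk co-receptors, had 0.20 ± 0.21 and −1.40 ± 0.93 (SE).

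In the NexCre line the lowest p of these lists belonged to Tcf7l2, a TCF factor that is also a thalamic marker. It stood at 42.9 CPM in control 1 and 5.26 to 5.99 CPM in the other 3 libraries (log2 fold change −2.11 ± 0.67 (SE), edgeR adjusted p = 1). Wls stood at 31.8 and 16.5 CPM in controls and 16.4 and 13.4 CPM in mutants, with control 1 alone high (−0.69 ± 0.30 (SE), edgeR adjusted p = 1). The feedback genes Dact2 and Dact1 had −0.88 ± 0.31 and 0.53 ± 0.21 (SE), and both had mutants apart from controls. The others named by their low p, Adgra2, Lgr6, Lgr4, Celsr1, Daam2, Dvl2, Csnk1d, Tcf7, Kremen1 and Kremen2, had log2 fold changes from −0.76 to 0.57 and an unadjusted p above 0.05 in edgeR.

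Markers of the subplate and of other cell types also differed between the Emx1Cre groups. The summed level of 8 astrocyte markers, none at 0 reads, was 2142 and 1968 CPM in controls and 4755 and 4032 CPM in mutants. Meningeal markers summed to 20.7 and 17.7 CPM in controls, where Aldh1a2 and Slc6a13 were at 0 reads in control 2, and to 45.3 and 172 CPM in mutants. In Emx1Cre mutants 4 of the 7 subplate markers were lower at an unadjusted p under 0.05 in edgeR, where 3.07% of all genes were. They were Cplx3, Kcnab1, Nxph4 and Ccn2. None of the 7 was called by edgeR, where 0.0789% of all genes were. DESeq2 called 3 of them (Cplx3, Nxph4 and Kcnab1), where it called 1.43% of all genes. Cplx3 had a log2 fold change of −1.81 ± 0.26 (SE, edgeR adjusted p = 0.0640), Nxph4 −1.23 ± 0.27 (SE, edgeR adjusted p = 0.191) and Kcnab1 −1.08 ± 0.18 (SE, edgeR adjusted p = 0.0965). The list was not uniform: both mutants lay below both controls for 5 of the 7 markers, where 15.2% of all genes did so. They lay above them for 2, Nr4a2 (0.56 ± 0.34 (SE)) and Moxd1 (0.28 ± 0.37 (SE)), where 15.1% did so. Upper-layer markers summed to 1399 and 2040 CPM in controls and 950 and 741 CPM in mutants. Radial glia markers overlapped, at 1306 and 738 CPM against 1693 and 1159 CPM. The part of these cell types in the Emx1Cre values of Wnt7a, Wnt5a, Wnt9a, Rspo2 and Fzd4 was not tested.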

How the data were processed

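The authors deposited raw read counts for every gene, with the Emx1Cre and the NexCre line each in a table of its own. HISAT2, SAMtools, DESeq2 and build mm10 are named in the submitters' processing notes, with no versions. Which program and annotation gave the counts, and with which strand setting, is not given in the sources used here. Reads were 100 bases and paired, per the labels' protocols. Between 67.6% and 75.4% of counts from 2 to 20 were even, so both reads of a pair may often be counted and counting intervals may be too narrow.

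Tables were joined by symbol. Symbols turned into date numbers were left out (26 and 24 rows, 0.239% to 0.269% of reads). All per-sample columns were used. GENCODE M21 (mm10) matched 53543 genes (97%) and gave positions and exon lengths for CPM per kb. Without the strand setting, 9 genes that share exon bases with an antisense or other opposite-strand gene (Axin2, Fzd5, Fzd6, Lef1, Rspo3, Sfrp2, Wnt11, Wnt5a and Wnt7b) cannot be told apart from it there.

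Genes were kept by edgeR's filterByExpr (minimum count 10, minimum total 15). The 8 libraries entered 1 TMM-scaled quasi-likelihood fit (edgeR 4.0.16, R 4.3.3, prior count 0.125) with group as the only term, 4 residual and 5.95 prior degrees of freedom, a biological coefficient of variation of 26.2% and Benjamini-Hochberg adjustment over 22820 genes (threshold 0.05, two-sided). Each p thus rests on a spread shared across groups and genes. Intervals and SE come from that fit. Separate pools are separate samples as far as the labels say. Replicates differed by a chi-square of 24.2 to 84.3 per degree of freedom, so none is a repeat deposit. The script was tested on simulated data.

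Alternatives were RLE and upper-quartile scaling, no filter and a strict filter on low counts (1 CPM in 2 libraries and a mean count of 20), DESeq2 1.42.0, each line alone, a replicate block, protein-coding genes only, and each library left out. Genes described in full had an unadjusted p under 0.05 in a comparison. Up to 3 genes of a class with the highest CPM per kb in a line were named by level. In the other pathway lists the 2 genes with the lowest p were named. Per-library values of other genes (Wnt4, Wnt3, Wnt2b, Sfrp2, Fzd3 and Lrp6), the subplate markers named and the promoters shown were chosen after their values were seen. The genes and lists were chosen with earlier results of these data known.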

Additional observations from a re-analysis of the deposited data

How the results depend on the processing

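No member of the Wnt group was called by edgeR in either line or in the difference under RLE or upper-quartile scaling, the strict filter, the replicate block or protein-coding genes only, nor in either line fitted alone, where the difference was not fitted. Without the low-count filter edgeR called 1 gene in the Emx1Cre line (Wnt5a) and 7 in the difference. In the NexCre line it called 5 (Fzd1, Fzd10, Rspo1, Wif1 and Wnt1). The share of all genes called without the filter is not given here, so these counts show nothing particular to the Wnt genes. DESeq2 called 2, 2 and 1 in the Emx1Cre line, the NexCre line and the difference, against 1.43%, 0.394% and 0.498% of all genes. The cause of these changes was not tested. Leaving out 1 library gave 0 to 0 calls in the Emx1Cre line, 0 to 1 in the NexCre line and 0 to 1 in the difference, the call being Fzd10 without NexCre control 2. In at least 1 of those 8 fits the sign changed for 16 of the 40 tested genes in the Emx1Cre line, 22 in the NexCre line (Wnt3, Wnt4, Wnt5a and Wnt9a among them) and 16 in the difference. Among genes with an unadjusted p under 0.05 and the readouts, these were Lef1 in the Emx1Cre line (−0.17 to 0.28), Axin2 in the NexCre line (−0.41 to 0.12), Lef1 in the NexCre line (−2.0 to 0.38) and Lef1 in the difference (−0.31 to 2.08).

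Same-numbered libraries of a line had deviations correlated at 0.15 (Emx1Cre) and 0.068 (NexCre), which cannot settle whether they are paired. The labels do not state a pairing, so the main fit had no block. With the replicate block, 0 of the Wnt genes were called, while over all genes 82, 22 and 5 were called in the Emx1Cre line, the NexCre line and the difference, against 18, 7 and 1 without it. Depth limits what can be said of genes with few reads, such as Wnt1, Wnt6, Wnt9b, Wnt16 and Wif1, and 2 pools a group limit every value.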
